A study of Mus musculus with 12 samples.

Results

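Vehicle-injected and uninjected mice on a high-fat diet were compared in the duodenum by RNA sequencing, with 3 libraries of each, 6 of the 12 of the series. All 6 libraries came from C57BL/6N mice that began a high-fat diet (HFD) at 6 weeks of age and stayed on it for 18 weeks. HFD Vehicle mice (libraries 23, 50 and 55) were injected into the peritoneum once daily for 4 days with corn oil containing 30% DMSO, the solvent used for the drug in this study. HFD mice (libraries 4, 30 and 38) had the diet alone. The remaining 6 libraries were of Chow mice (8, 17 and 19), on regular diet for the same time, and HFD PCN mice (5, 11 and 27), on HFD and given pregnenolone 16α-carbonitrile, a ligand of the mouse pregnane X receptor, at 50 mg/kg by the same route and schedule. DMSO, oil and the injection itself came together, so their parts cannot be told apart, and both groups carried the diet. Counts were joined over 26121 genes listed in both deposited tables, of which 16255 had enough counts to be tested.

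Heat shock factor 1, released when proteins unfold, binds heat shock elements and switches on chaperones. The transcription factor SREBP2 is freed when membrane sterols run low and turns on the cholesterol synthesis enzymes. Clock genes follow the time of day and feeding, Paneth cells at the crypt base secrete defensins, and resident macrophages and lymphocytes stand within or under the absorptive epithelium.

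Libraries held between 4676718 (HFD Vehicle 55) and 19173500 (HFD Vehicle 50) gene counts, and HFD 4 was close to the lowest with 4925123. The extraction notes name liver pieces, whereas the sample labels name duodenum. Vil1, the brush border protein villin, stood between 1155 and 2317 CPM (counts scaled to 1000000 per library with TMM factors) in the 6 libraries, and Alb, the albumin of hepatocytes, stood at 1.15 CPM or less in all 12. Mitochondrial ribosomal RNA took 9.30 to 22.1% of the joined counts in the HFD libraries and 33.8, 16.8 and 12.7% in HFD Vehicle 23, 50 and 55. Correlations of log2 CPM over genes placed HFD Vehicle 55 nearer to HFD 38 (0.977) than to HFD Vehicle 50 (0.942) or HFD Vehicle 23 (0.902). In HFD Vehicle 23, 546 of 13733 genes with a mean of at least 20 counts lay over 2-fold above the highest HFD library and 706 lay over 2-fold below the lowest. The same numbers were 257 and 195 in HFD Vehicle 50, and 52 and 142 in HFD Vehicle 55. The labels do not state that each library of a group came from a separate animal, and p-values measure only the spread between these samples, which may be technical.

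No gene passed edgeR's quasi-likelihood test at an adjusted p of 0.05 with all 6 libraries, which is 0.0% of 16255 genes. The lowest adjusted p was 0.552. At an unadjusted p of 0.05, 594 genes (3.65%) were higher and 359 (2.21%) lower in the vehicle group, together 5.86%. All 3 vehicle libraries stood above all 3 HFD libraries in 756 genes (4.65%) and below them in 857 (5.27%), together 9.92%. The genes named below for their low p were taken from these, so their lack of overlap follows from the choice and is not a result. The median log2 fold change of all tested genes was 0.01, and 50.7% of genes had a positive one. With HFD Vehicle 55 left out, 260 of 16844 genes passed (1.54%), 200 higher (1.19%) and 60 lower (0.356%), while leaving out any other single library left 0. HFD Vehicle 55 had the fewest genes over 2-fold outside the HFD range. Calls made without it, here and below, thus depend on that choice of library and lend no support. DESeq2 called 32 genes (0.18%) on all 6 libraries. A fit of all 12 libraries called 1 gene (0.00594%), as did a fit with no filter on low counts (0.00387%), and a fit with HFD Vehicle 55 as the lone vehicle library called 6 (0.0373%).

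Ces1d, a carboxylesterase that hydrolyses ester drugs and lipids, had the lowest p of all genes. It lies on chromosome 8 at 93166068-93197838 in GRCm38, as the deposited tables give it. Ces1d stood at 11.3, 12.7 and 14.8 CPM in HFD 4, 30 and 38 and at 53, 37.8 and 40.1 CPM in HFD Vehicle 23, 50 and 55. No vehicle library was near the HFD range. Its log2 fold change was 1.75 with an SE of 0.23 (n = 3 per group; adjusted p = 0.552 in edgeR), and Ces1d passed in the fit of all 12 libraries (adjusted p = 0.0383) and in DESeq2 on the 6 (adjusted p = 1.05e-05). In CPM scaled over all 12 libraries, Ces1d stood at 7.38, 10.6 and 14.9 in Chow and at 67.1, 62.8 and 60.8 in HFD PCN, so the 2 untreated groups were low and the 2 injected groups high. The untreated groups also shared 1 deposited table and the injected groups the other, so injection and table cannot be told apart.

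Slc6a20b, a carrier of the SLC6 family of amino acid transporters, stood at 2.03, 1.48 and 3.43 CPM in HFD and 8.72, 11.4 and 7.40 CPM in HFD Vehicle. Its log2 fold change was 1.97 (SE 0.38, and edgeR gave an adjusted p of 0.803), the groups did not overlap, and Chow libraries (6.73 to 13.9 CPM on the 12-library scale) lay across the vehicle range. DESeq2 called Slc6a20b on the 6 libraries (adjusted p = 0.0255).

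Cyp2c29 and Cyp2c38, P450 enzymes of drug and fatty acid oxidation, were low in HFD and also apart from it. Cyp2c29 stood at 3.61, 7.16 and 9.86 CPM in HFD and 17.2, 24.0 and 21.2 CPM in HFD Vehicle. Its log2 fold change was 1.55 (SE 0.34), with an adjusted p of 0.803 in edgeR and 0.045 in DESeq2. The vehicle level remained far below Chow (115 to 156 CPM) and HFD PCN (307 to 1515 CPM) on the 12-library scale. Cyp2c38, named after its values were seen, stood at 3.39, 1.99 and 4.85 CPM against 8.16, 8.83 and 9.16 CPM. It passed in 0 of 16 alternatives. Ces1 and Cyp2c genes have close copies, between which the counting could divide reads.

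Other genes with no overlap and low p stood far above HFD in 2 of the 3 vehicle libraries. Necab2, a neuronal calcium-binding protein, stood at 8.09, 10.4 and 0.974 CPM in HFD Vehicle against at most 0.455 CPM in HFD. Arc, an activity-induced gene of neurons, stood at 12.2, 8.93 and 1.75 CPM against at most 1.13 CPM. Plk4, the kinase of centriole duplication, stood at 35.2, 49.5 and 11.7 CPM against at most 11.3 CPM. In each of these, HFD Vehicle 55 was nearest to the HFD range. Lipg, endothelial lipase, had log2 fold change 2.10, Clcn1, a chloride channel, 2.21, Proser2 1.76 and Trim69 2.84, all with an edgeR adjusted p of 0.803. On the same 6 libraries DESeq2 called Necab2 (adjusted p = 0.000219), Arc (0.0047), Plk4 (0.045), Lipg (0.045), Proser2 (0.0456) and Clcn1 (0.048), but not Trim69 (0.105).

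Other genes were named for low p among those lower in every vehicle library. Oit1 stood at 67.3, 111 and 82.2 CPM in HFD and 29.5, 42.0 and 55.9 CPM in HFD Vehicle. Its log2 fold change was -1.04 (SE 0.29, and edgeR gave an adjusted p of 0.803), and Chow (70.2 to 113 CPM) and HFD PCN (73.6 to 102 CPM) lay near the HFD range. Tinagl1, a matrix protein, stood at 19.9, 27.7 and 19.98 CPM against 11.3, 9.09 and 15 CPM. For Tinagl1 the Chow libraries (8.63 to 14.6 CPM) and the HFD PCN libraries (10.2 to 17.2 CPM) were near the vehicle range. Cyp4f16, a fatty acid hydroxylase, stood at 58.7, 82.0 and 90.1 CPM against 37.8, 48.9 and 40.9 CPM. Pnp2, a purine nucleoside phosphorylase, had log2 fold change -1.09, Ankrd37 -1.39, Tifab -1.70, Psg25 -1.72 and Zfp322a -0.85. None of these passed in edgeR with 6 libraries, and Tifab passed without HFD Vehicle 55 (edgeR adjusted p = 0.0321).

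Cmklr1, the chemerin receptor, stood at 5.42, 4.78 and 4.47 CPM in HFD and 2.53, 1.86 and 2.14 CPM in HFD Vehicle. Pirb, an inhibitory receptor of myeloid and B cells, stood at 7.67, 6.03 and 5.01 CPM against 2.95, 1.76 and 3.12 CPM. Abi3, an actin regulator of macrophages, stood at 13.3, 10.1 and 8.82 CPM against 5.41, 5.83 and 5.26 CPM. The HFD PCN libraries had 1.94 to 2.93 CPM of Cmklr1, 2.49 to 4.10 CPM of Pirb and 4.09 to 7.03 CPM of Abi3, near the vehicle libraries.

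**Figure D1:**
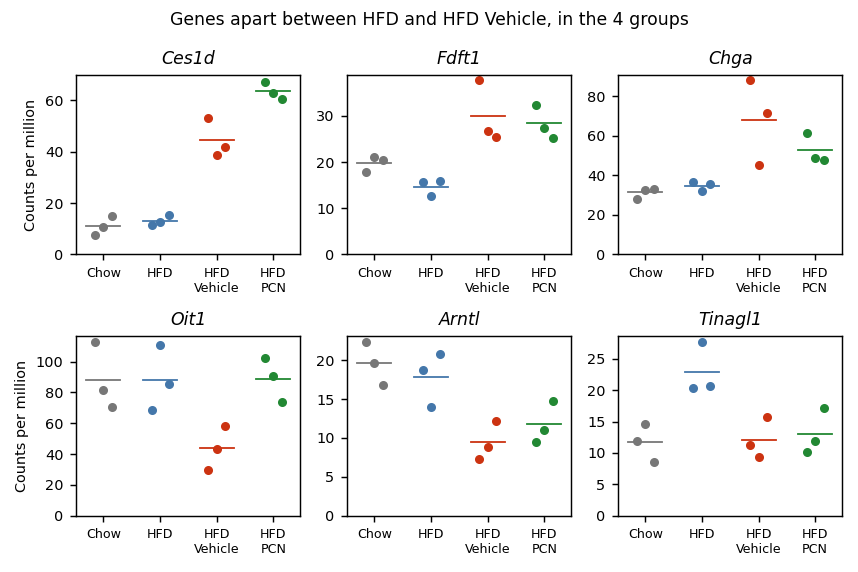
CPM (linear axes, from 0) of 6 genes with no overlap between HFD and HFD Vehicle, in the 4 groups of 3 libraries, scaled over all 12 libraries; points are libraries and bars are means. Ces1d is between 60.8 and 67.1 in HFD PCN and at most 14.9 in Chow, and Oit1 is at 73.6 to 102 in HFD PCN, above all vehicle libraries.

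The chaperone genes stood high in HFD Vehicle 23 and 50 and not in HFD Vehicle 55. All 33 tested members of the 37-gene heat shock list, which also holds the mitochondrial pair Hspe1 and Hspd1, had a positive log2 fold change, with a median of 1.30 against 0.01 for all genes. None passed in edgeR with 6 libraries, 20 had an unadjusted p under 0.05 (3.65% of all genes were higher at that p) and 6 did not overlap, against 4.65% of all genes. DESeq2 called 4 of the 33 on the same libraries, where it called 0.18% of all genes, namely Hspe1 (adjusted p = 0.00483), Hspd1 (0.026), Hspa4l (0.0303) and Hsp90ab1 (0.045). With HFD Vehicle 55 left out, 16 of the 33 passed as higher, where 1.19% of all genes did. The chaperones were not high in HFD Vehicle 55, so this count follows from the library left out and lends no support. The summed level of the list was 2848, 2104 and 3542 CPM in HFD 4, 30 and 38, and 12834, 10688 and 2988 CPM in HFD Vehicle 23, 50 and 55. As a share of joined counts, the list took 1.02, 1.08 and 0.328% in these vehicle libraries. In HFD PCN 5, 11 and 27, also injected, it took 0.471, 0.324 and 0.331%. The share was 0.202 to 0.400% in HFD and 0.235 to 0.603% in Chow. HFD Vehicle 23 had 19 and HFD Vehicle 50 had 18 of the 33 genes over 2-fold above every HFD library, and HFD Vehicle 55 had 0. Of all tested genes, 4.46, 2.1 and 0.744% were that far above in HFD Vehicle 23, 50 and 55.

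Hsp90aa1, the stress-inducible form of HSP90, stood at 107, 63.7 and 151 CPM in HFD and at 1806, 1439 and 109 CPM in HFD Vehicle. HFD Vehicle 23 and 50 were far above every HFD library, and HFD Vehicle 55 lay inside the HFD range. The log2 fold change was 3.38 (SE 0.86, and edgeR gave an adjusted p of 0.803), and 3.89 without HFD Vehicle 55 (adjusted p = 0.00835). Hspb1, the small chaperone HSP27, stood at 2.93, 3.13 and 2.99 CPM in HFD, and at 79.4, 51.4 and 2.34 CPM in HFD Vehicle. Bag3, a co-chaperone of HSP70 in autophagy, stood at 28.2, 25.2 and 26.2 CPM against 370, 304 and 22.4 CPM. Hspb1 and Bag3 were singled out after their values were seen, and both were lowest of the 6 libraries in HFD Vehicle 55. Without that library both had an edgeR adjusted p of 0.000809. This value follows from the choice of genes and of library and lends no support. The constitutive Hsp90ab1 stood at 331, 194 and 414 CPM against 2186, 1449 and 349 CPM, and Hspa8, the cognate HSP70, at 671, 513 and 985 CPM against 2804, 2426 and 742 CPM. Hspe1 and Hspd1, the mitochondrial chaperonins HSP10 and HSP60, had log2 fold changes of 2.72 and 2.18. Hspe1 stood at 20.5, 11.5 and 31.2 CPM against 197, 190 and 30.0 CPM, and Hspd1 at 163, 85.0 and 181 CPM against 1021, 713 and 201 CPM, so only Hspd1 of this pair separated all 6 libraries by group.

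Hspe1 and Hspd1 are transcribed away from each other, and the stretch between their main start sites is shown because its letters are a heat shock element in 2 overlapping copies. The motif searched was GAANNTTCNNGAA on both strands of 300 bases around each RefSeq start site (GRCm38.p6), and its bases stand in capitals below, on the strand of Hspe1, at chr1:55088053-55088082, which begins its first match 89 bases before the Hspe1 start. The stretch also lies in an untranslated exon of a longer Hspd1 transcript in the GENCODE annotation.
Hspe1 and Hspd1 heat shock element: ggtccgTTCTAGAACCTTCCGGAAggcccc
Of 32544 promoters, 198 held this motif (0.608%), and of 11084 tested genes with a promoter sequence 67 did (0.604%). Of the 37 chaperone genes 29 had a promoter sequence, and 4 of them held the motif (13.8%), namely Hsph1, Hspe1, Hspd1 and Chordc1. Hspe1 and Hspd1 hold the same stretch, so 1 site counts for both. In Hsph1 and Chordc1 no match lay wholly before the start site. Hsp90aa1, Hspb1 and Bag3 were not among the 4, though not every chaperone gene had a promoter sequence. None of 23 immediate early promoters, 17 cholesterol synthesis promoters and 11 Paneth promoters held it. At 0.604% of tested genes, lists this small would seldom hold a match, so the absence does not set them apart from other genes. A match is a sequence description and binding was not measured.

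Hsph1 and Dnajb1, encoding HSP110 and an HSP40, are listed only in the table of injected mice, so they have no value in HFD here. Hsph1 had 57490, 66422 and 160 counts in HFD Vehicle 23, 50 and 55, and 1852, 1390 and 534 in HFD PCN 5, 11 and 27. Dnajb1 had 13956, 12432 and 81 counts in the vehicle libraries and 632, 266 and 254 in HFD PCN. In CPM over the total of its own table, Hsph1 was at 3194 and 3464 in HFD Vehicle 23 and 50 but 34.2 in HFD Vehicle 55, a level under the 3 HFD PCN libraries (56.9 to 89.5). Hspa1a and Hspa1b had no entry under those names in the deposited counts, so they have no value here. One Chow library also differed from its group. Chow 17 had 428 CPM of Hsp90aa1, against 63.4 and 79.7 CPM in the others, on the 12-library scale.

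**Figure D2:**
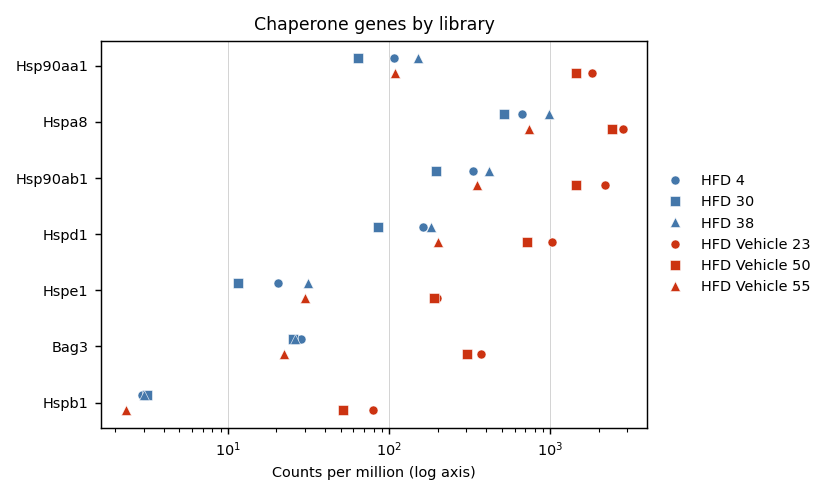
CPM (log axis) of 7 chaperone genes in the 3 HFD libraries (blue) and 3 HFD Vehicle libraries (red), with 1 point per library. HFD Vehicle 23 and 50 stand apart to the right for all 7 genes (Hsp90aa1 at 1806 and 1439), and HFD Vehicle 55 stands with or near the HFD libraries (109).

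The immediate early genes, transcribed within minutes of a stimulus, also stood highest in HFD Vehicle 23 and 50. Their median log2 fold change was 0.41, with 19 of 25 positive, and Myc and Dusp1 were the 2 that did not overlap (background 4.65%). The median was 0.10 without HFD Vehicle 50. Without HFD Vehicle 55, 4 of 26 passed as higher (background 1.19%), Nr4a1 and also Atf3, Ier2 and Jun, which were named for passing there. Nr4a1, an orphan receptor induced by stress and calcium, stood at 2.48, 2.10 and 1.14 CPM in HFD and 31.8, 28.0 and 1.75 CPM in HFD Vehicle. HFD Vehicle 55 lay inside the HFD range. Myc, the growth regulator, stood at 12.2, 6.08 and 14.3 CPM against 67.4, 24.1 and 14.6 CPM, a log2 fold change of 1.72. Fos, an AP-1 subunit, stood at 46.7, 144 and 113 CPM against 174, 295 and 72.1 CPM. Klf6 stood at 77.9, 197 and 172 CPM against 153, 250 and 156 CPM. Dusp1, a phosphatase of MAP kinases that glucocorticoids also induce, stood at 5.19, 7.22 and 3.05 CPM against 12.3, 14.8 and 7.60 CPM.

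Il1b, the fever cytokine interleukin 1β, was low in all libraries but 2. It stood at 0.677, 1.25 and 1.09 CPM in HFD and at 9.07, 7.18 and 0.779 CPM in HFD Vehicle, with log2 fold change 2.46 (SE 0.70, and edgeR gave an adjusted p of 0.803). Without HFD Vehicle 55 the edgeR adjusted p of Il1b was 0.00986. Il1a stood at 1.55, 1.08 and 1.17 CPM in HFD Vehicle and at most 0.599 CPM in HFD. The 12 tested members of the cytokine and acute phase list had a median log2 fold change of 0.07 with 7 positive. In the integrated stress response list, 13 of 18 were positive with a median of 0.55, which was 0.12 without HFD Vehicle 23 and 0.29 without HFD 30. Ppp1r15a, which ends that response, stood at 5.87, 4.89 and 2.83 CPM against 12.2, 13.4 and 5.65 CPM, Chac1, which breaks down glutathione, had log2 fold change 2.18, and Atf4, its transcription factor, 0.59. The ER unfolded protein response list differed little, with a median of 0.02 and 11 of 20 positive, while summed levels lay between 2613 and 3014 CPM in all 6 libraries.

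Paneth cell genes had the highest median of the lists, 2.06, with 15 of 15 tested positive and 7 that did not overlap (background 4.65%). None passed in edgeR with 6 libraries, 6 of 16 passed without HFD Vehicle 55 (background 1.19%), and DESeq2 called 6 of 17 on 6 libraries (background 0.18%). The median was 1.28 without HFD Vehicle 23. Defa24, an α-defensin, stood at 107, 37.2 and 92.6 CPM in HFD and 689, 287 and 113 CPM in HFD Vehicle. HFD Vehicle 23 was highest, and HFD Vehicle 55 was barely above HFD 4. Itln1, the lectin intelectin, followed that order at 98.6, 37.9 and 79.4 CPM against 613, 271 and 105 CPM. Lyz1, Paneth lysozyme, stood at 460, 170 and 273 CPM against 1216, 565 and 322 CPM, with overlap. Mptx2, a pentraxin, was below 0.23 CPM in HFD and at 2.46, 1.86 and 0.779 CPM in HFD Vehicle, and Defa23 had log2 fold change 3.03. Defensin genes are near-identical copies, so reads can be divided between them and the members are not independent.

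By list medians, HFD Vehicle 23 also held the highest levels of other compartments beside the Paneth genes. Pancreatic acinar markers had a median log2 fold change of 1.38 with 17 of 19 positive. Of the 19, 12 were over 2-fold above every HFD library in HFD Vehicle 23, 1 in HFD Vehicle 50 and 0 in HFD Vehicle 55. Of all tested genes, 4.46, 2.1 and 0.744% were that far above in these libraries. The acinar median was 0.63 without HFD Vehicle 23 and 2.402 without HFD 30. Clps, the pancreatic colipase, stood at 4.97, 5.97 and 6.04 CPM against 24.3, 9.14 and 5.84 CPM. Try5, a trypsinogen, was at 2.74, 0.774 and 0.584 CPM against at most 0.455 CPM. Pnliprp2 stood at 4.51, 8.64 and 15.9 CPM against 27.5, 13.5 and 9.54 CPM, and Zg16, also made by goblet cells, at 549, 1089 and 1060.3 CPM against 501, 751 and 836 CPM. The summed acinar level, mostly Zg16, overlapped, at 575, 1136 and 1092 CPM in HFD against 659, 817 and 869 CPM. In bulk tissue, more cells of a type and more RNA per cell cannot be told apart, and the part of sampled crypt or pancreas in these differences was not tested.

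Cholesterol synthesis genes had a higher summed level in all 3 vehicle libraries than in any HFD library. Of 25 tested genes, 21 had a positive log2 fold change, with a median of 0.38, and 8 did not overlap (background 4.65%), and none passed in edgeR. The summed level was 764, 773 and 940 CPM in HFD and 1258, 1034 and 1059 CPM in HFD Vehicle, with no overlap. Of the 51 lists, only this one, the enteroendocrine and the mesothelial list had summed levels free of overlap. Among single genes, 9.92% were free of overlap, higher or lower, and the separation of summed levels was not tested. By the median over genes of the difference from the HFD mean, on a log2 scale, the groups did overlap, since HFD 38 (0.25) lay above HFD Vehicle 50 (0.24). HFD Vehicle 23, 50 and 55 had 16, 13 and 16 of the 25 genes above every HFD library, where 35.8, 24.4 and 24.4% of all tested genes were.

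Fdft1, which commits farnesyl groups to sterols, stood at 15.3, 12.6 and 15.3 CPM in HFD and 37.5, 26.0 and 24.3 CPM in HFD Vehicle, a log2 fold change of 1.03 (SE 0.25, and edgeR gave an adjusted p of 0.803). Stard4, a sterol carrier, stood at 70.9, 75.8 and 95.1 CPM against 131, 142 and 99.0 CPM. The groups did not overlap in Fdft1 or Stard4, and Hmgcs1, an early enzyme of the pathway, did at 90.5, 76.0 and 108 CPM against 118, 105 and 129 CPM. Other genes without overlap were Fdps (log2 fold change 1.43), Lss (0.87), Sqle (0.79) and Insig1 (0.38), named after their values were seen.

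Other lipid lists had medians between -0.26 and 0.12. Fatty acid synthesis had a median of 0.12 with 9 of 17 positive, and its members went both ways. Srebf1, the lipogenic regulator, stood at 35.2, 45.7 and 52.5 CPM against 110, 65.3 and 61.2 CPM. Fasn, fatty acid synthase, stood at 99.8, 62.4 and 107 CPM against 247, 126 and 116 CPM. Elovl6, an elongase, lay on the other side at 194, 258 and 214 CPM against 75.9, 99.4 and 193 CPM. Sterol absorption genes had a median of -0.12, with Npc1l1, the cholesterol uptake carrier, at 245, 442 and 326 CPM against 220, 402 and 310 CPM. Scarb1, an HDL receptor, stood at 39.96, 77.3 and 29.4 CPM against 14.1, 29.9 and 33.7 CPM. Fat oxidation genes had a median of -0.13 with 5 of 32 positive, and the median was 0.03 without HFD Vehicle 23 and 0.02 without HFD 38. Cpt1a, of fatty acid entry into mitochondria, and Pdk4, the brake on pyruvate oxidation, had log2 fold changes of -0.24 and -0.03, and Ucp2 -0.73.

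The circadian clock list had 15 of 18 positive members with a median of 0.37, and 5 stood higher (background 4.65%) and 1 lower (background 5.27%) without overlap. The median was 0.18 without HFD Vehicle 50 and 0.19 without HFD 4. Without HFD Vehicle 55, 3 of 18 passed as higher (background 1.19%), Per2 and Per3 among them. Arntl, the activator BMAL1, stood at 18.3, 14.0 and 20.1 CPM in HFD and 7.31, 8.62 and 11.7 CPM in HFD Vehicle, a log2 fold change of -0.94 (SE 0.27). Per2, a repressor, stood at 137, 156 and 105 CPM against 498, 392 and 103 CPM, with HFD Vehicle 55 below all HFD libraries. Members above HFD in all 3 vehicle libraries included Per3, Ciart, Cry1 and Bhlhe41, named after their values were seen. Per3 stood at 50.1, 49.6 and 46.1 CPM against 122, 102 and 57.9 CPM, and Ciart at 3.84, 7.90 and 6.10 CPM against 15.5, 20.4 and 8.38 CPM. Log2 fold changes were 0.71 for Cry1 and 1.16 for Bhlhe41. For Arntl, HFD PCN (9.53 to 14.7 CPM) was close to HFD Vehicle and Chow (16.8 to 22.4 CPM) to HFD on the 12-library scale.

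**Figure D3:**
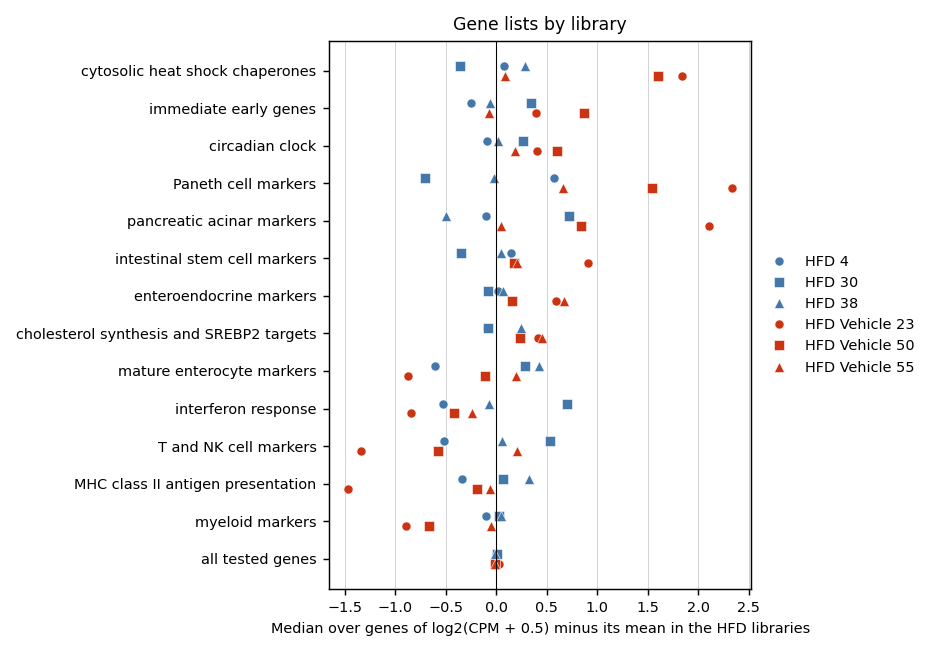
Median over the tested genes of each list of log2(CPM + 0.5) minus its mean in the HFD libraries (linear axis), for 3 HFD (blue) and 3 HFD Vehicle (red) libraries. Chaperones are 1.84 and 1.61 in HFD Vehicle 23 and 50 and 0.09 in HFD Vehicle 55, whereas cholesterol synthesis is 0.42, 0.24 and 0.46 in HFD Vehicle 23, 50 and 55 against -0.09, -0.08 and 0.25 in HFD 4, 30 and 38, so that HFD 38 lies above HFD Vehicle 50.

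Drug metabolism genes, which the pregnane X receptor controls, did not separate as a list. Its median log2 fold change was 0.07 with 15 of 28 positive, and the 3 members higher without overlap were Ces1d, Cyp2c29 and Cyp2c38 (background 4.65%). The median was -0.28 without HFD Vehicle 55 and 0.27 without HFD Vehicle 23. Cyp3a11, the prime target of the receptor, stood at 398, 729 and 512 CPM in HFD and 163, 503 and 1106 CPM in HFD Vehicle, so the vehicle libraries spanned the HFD range on both sides. On the 12-library scale Cyp3a11 had 4653 to 11918 CPM in HFD PCN. Cyp2b10 stood at 151, 224 and 193 CPM against 156, 233 and 317 CPM, and Cyp2c55 had log2 fold change -0.40. The receptors themselves overlapped, Nr1i2 (PXR) with log2 fold change -0.15 and Nr1i3 (CAR) -0.41. Abcb1a, the efflux pump P-glycoprotein, stood at 148, 196 and 360 CPM against 328, 377 and 450 CPM. Abcc3, a basolateral exporter, lay lower at 138, 141 and 150 CPM against 76.8, 105 and 112 CPM without overlap. Gsta1, a glutathione transferase, stood at 42.9, 60.2 and 43.1 CPM against 16.3, 39.9 and 32.1 CPM. Glucocorticoid response genes had a median of -0.11, with Fkbp5, a cochaperone of the receptor, at 316, 396 and 299 CPM against 213, 243 and 424 CPM, and Tsc22d3 with log2 fold change -0.19.

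Most immune genes had lower means in the vehicle group, and none passed in edgeR with 6 libraries. Myeloid markers had a median of -0.56 with 18 of 20 negative, and 6 lay below HFD without overlap (background 5.27%), 1 above it, Cd68 at log2 fold change 0.46. Siglec1, a receptor of resident macrophages, stood at 7.90, 10.7 and 7.90 CPM in HFD and 3.797, 1.96 and 6.04 CPM in HFD Vehicle (log2 fold change -1.24, SE 0.41; edgeR adjusted p = 0.803). Cx3cr1, the fractalkine receptor, stood at 7.45, 7.05 and 8.22 CPM against 0.563, 1.86 and 6.62 CPM, and it alone of the list passed without HFD Vehicle 55 (edgeR adjusted p = 0.039; 0.356% of all genes passed as lower there). It was named after its values were seen, as was Clec10a, with log2 fold change -1.16. Fcgr1 stood at 2.26, 1.88 and 2.07 CPM against 1.05, 1.14 and 0.974 CPM, and Csf1r at 39.7, 42.0 and 47.2 CPM against 18.6, 27.1 and 41.1 CPM. The summed myeloid level was 266, 347 and 305 CPM in HFD and 131, 192 and 292 CPM in HFD Vehicle.

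T and NK cell markers had 21 of 21 negative with a median of -0.68, and MHC class II genes 13 of 13 with a median of -0.44, and no gene of either was free of overlap. Without HFD Vehicle 23 these medians were -0.28 and -0.070, and that of the T and NK markers was -0.29 without HFD 30. HFD Vehicle 23 had 18 of the 21 T and NK genes below every HFD library, HFD Vehicle 50 had 12 and HFD Vehicle 55 had 0, where 34.7, 25.5 and 27.6% of all tested genes were. Klrd1, an NK receptor, stood at 1.35, 5.00 and 1.14 CPM against 0.422, 0.826 and 1.56 CPM, Ccl5, a T cell chemokine, at 2.26, 5.69 and 2.50 CPM against 0.211, 1.45 and 3.31 CPM, and Itgae, the epithelial homing integrin, at 11.1, 19.2 and 11.5 CPM against 4.92, 7.23 and 14.8 CPM. Of the class II genes, H2-Eb1 stood at 48.8, 62.4 and 72.0 CPM against 20.5, 45.2 and 54.3 CPM, and the log2 fold changes of H2-Aa and Cd74 were -0.68 and -0.53. Interferon response genes had 27 of 30 negative and a median of -0.55, which was -0.13 without HFD 30, the HFD library where the list stood highest. Ifit3 stood at 4.74, 16.6 and 6.81 CPM against 1.76, 3.51 and 5.65 CPM, and Psmb9, an immunoproteasome subunit, at 19.2, 24.1 and 19.4 CPM against 8.51, 14.0 and 16.6 CPM. HFD 30 was the highest HFD library in Ifit3, Klrd1, Ccl5 and Itgae.

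**Figure D4:**
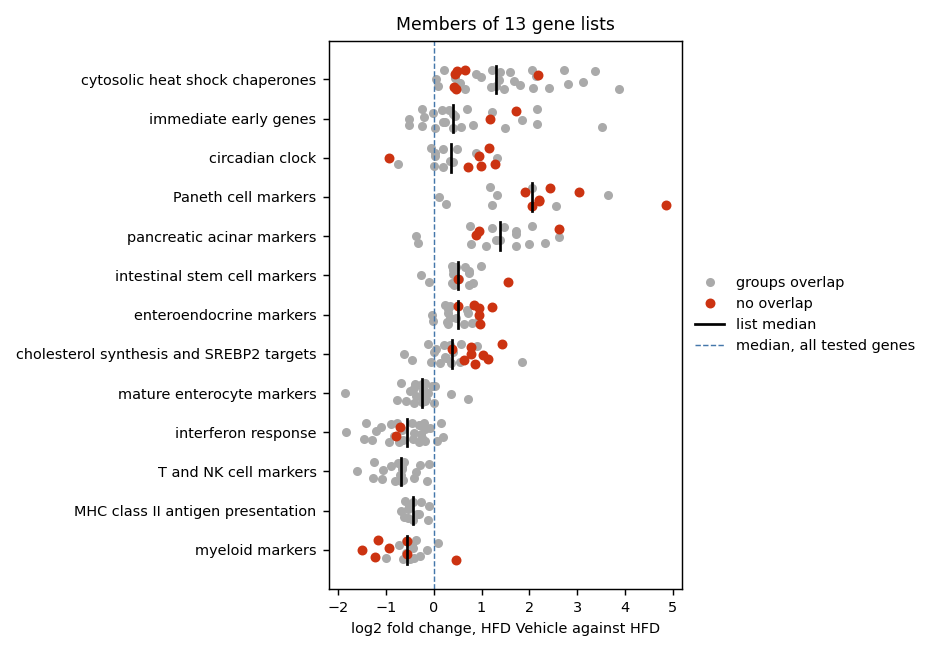
Log2 fold change of HFD Vehicle against HFD for the tested members of 13 lists, with red points for genes whose groups of 3 libraries did not overlap, black bars for list medians and a dashed line for the median of all tested genes (0.01). Chaperone and Paneth members lie above 0, and the T and NK cell and MHC class II members below 0.

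Enteroendocrine genes also had a summed level free of overlap, at 302, 273 and 282 CPM in HFD and 565, 328 and 454 CPM in HFD Vehicle. Of 21 tested, 19 had a positive log2 fold change, the median was 0.51 and 6 did not overlap (background 4.65%). Chga, chromogranin A of hormone granules, stood at 35.7, 32.0 and 34.1 CPM against 87.5, 43.9 and 68.2 CPM (log2 fold change 0.97, SE 0.27). Chgb, chromogranin B, stood at 75.4, 53.7 and 62.1 CPM against 125, 78.5 and 137 CPM. Gip, the incretin of duodenal K cells, stood at 31.4, 51.4 and 52.4 CPM against 138, 58.5 and 66.2 CPM. HFD Vehicle 50 was the lowest of the vehicle libraries in all 3 genes. On the 12-library scale Chga was at 28.2 to 33.1 CPM in Chow and 47.7 to 61.5 CPM in HFD PCN.

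The stem cell and cell cycle lists had positive medians and the mature enterocyte list a negative one. HFD Vehicle 23 was highest for the stem cell list and lowest for the enterocyte list. Peptide digestion and amino acid transport genes, also of absorptive cells, had a median of 0.09 with 13 of 22 positive. Stem cell markers had a median of 0.51 with 15 of 17 positive, which was 0.23 without HFD Vehicle 23, and Sox9, a crypt transcription factor, stood at 12.4, 5.29 and 10.9 CPM against 47.7, 21.0 and 13.4 CPM. Olfm4 stood at 82.4, 43.2 and 179 CPM against 183, 95.0 and 259 CPM. Cell cycle genes had a median of 0.35 with 31 of 35 positive, but 0.058 without HFD 30, 0.15 without HFD Vehicle 55 and 0.014 with library weights, and HFD Vehicle 50 lay below HFD 38. Mcm5 and Mcm6, of the replication helicase, had log2 fold changes of 0.92 and 0.47. Mature enterocyte markers had a median of -0.24 with 4 of 23 positive, but 0.035 without HFD Vehicle 23 and 0.0061 without HFD 38. Their summed level was 27160.3, 47243 and 51849 CPM in HFD and 18736, 38643 and 47340.0 CPM in HFD Vehicle. Fabp1, the fatty acid binding protein, stood at 601, 691 and 1849.7 CPM against 375, 755 and 1572 CPM, and Enpep, a peptidase, had log2 fold change 0.71. G6pc, which releases glucose, stood at 35.2, 42.4 and 46.0 CPM against 12.2, 32.2 and 21.2 CPM. The nuclear subunits of oxidative phosphorylation had 34 of 37 negative with a median of -0.23, but -0.00088 without HFD Vehicle 23. In that library 31 of the 37 lay below every HFD library, against 5 in HFD Vehicle 50 and 6 in HFD Vehicle 55 (34.7, 25.5 and 27.6% of all tested genes). HFD 4 had the lowest enterocyte level of the HFD group and HFD Vehicle 23 of the vehicle group, and the same 2 libraries had the highest shares of mitochondrial ribosomal RNA. All listed ribosomal RNA and similar transcripts, mitochondrial ones included, summed to 266384, 182375 and 98971 CPM in HFD. In HFD Vehicle 23, 50 and 55 the sum was 539497, 214283 and 133286 CPM. The part of ribosomal RNA in these results was not tested. Lars2, whose 3′ end is a known trap for ribosomal RNA reads, stood at 361, 109 and 64.8 CPM against 342, 184 and 123 CPM.

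Apoptosis and p53 genes had a median of -0.35 with 14 of 19 negative and 4 lower without overlap (background 5.27%), which were Cdkn1a, Bcl2l1, Zmat3 and Bbc3, the last 2 named after their values were seen. The median was -0.16 without HFD 30. Cdkn1a, the cell cycle inhibitor p21, stood at 80.6, 128 and 92.2 CPM against 48.7, 64.0 and 71.9 CPM, and Bcl2l1, a survival factor, had log2 fold change -0.62. Mesothelial markers, of the cells lining the gut's outer surface, were higher as a sum in all vehicle libraries. The sum was 540.4, 458 and 594 CPM in HFD against 941, 684 and 642 CPM, and it was carried by Krt19, at 505, 433 and 560.0 CPM against 857, 643 and 605 CPM, and Krt7, at 15.3, 14.9 and 22.5 CPM against 56.3, 29.1 and 24.0 CPM, keratins that the gut epithelium also makes. Upk1b, another marker of that list, was lower in all vehicle libraries, with log2 fold change -0.87.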

How the data were processed

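RNA of mouse duodenum had been sequenced with standard Illumina libraries, 12 in all and 3 per group. The authors deposited raw read counts per gene in 2 tables, one of the uninjected and one of the injected mice. The builds GRCm38 and mm10 and the tools HISAT2, HTSeq and DESeq2 are named in the submitters' processing notes, while versions and strand settings are not given in the sources used here. Each table lists only part of the genes (28066 and 28731), so the counts were joined by Ensembl identifier over 26121 genes; 1945 and 2610 genes stood in 1 table only. HFD 4 kept 87.0% of its counts and the other libraries at least 97.3%. Since the 2 tables come from separate listings, whether the groups were sequenced together is not given in the sources used here, and table and injection cannot be told apart in this comparison.

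The 6 libraries were fitted in edgeR 4.0.16 (filterByExpr, TMM, robust quasi-likelihood test, 1 group term; R 4.3.3), with Benjamini-Hochberg adjustment over all 16255 tested genes and a threshold of 0.05. Standard errors are the log2 fold change over the square root of F. CPM uses TMM-scaled sizes of the 6 libraries, or of all 12 where stated. Replicates of a group differed by more than counting noise (chi-square per degree of freedom 34.9 to 188).

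The members and the 51 gene lists were chosen with earlier results of these data known. Named genes were, since none passed, the 12 higher and 12 lower genes of smallest p with no overlap and a mean of at least 20 counts (no predicted, immunoglobulin or T cell receptor genes), for each list the 2 of smallest p and the 2 of highest level, and a fixed set of stress, drug, lipid and tissue genes. Hspb1, Bag3 and other genes so marked in the text were added after their values were seen. Lists are described by counts and medians, without a set test. Per-library list values add 0.5 to the CPM before the log2. Alternatives were leaving out each library, HFD Vehicle 23 and 50 together, other scalings, no count filter, DESeq2 1.42.0, limma-voom (limma 3.58.1) without and with library weights, all 12 libraries, leaving out ribosomal and mitochondrial genes, and library sizes from each whole table. Promoter sequences are RefSeq's. Some genes are not reported here.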

Additional observations from a re-analysis of the deposited data

Results flagged for a closer look

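CT010467.1, a transcript listed only in the HFD and Chow table and thus outside the comparison, held 13% of the counts of HFD 4, 1.03% of HFD 30 and 2.72% of HFD 38, against at most 0.0246% in the 3 Chow libraries. It was singled out because a signal outside the joined genes stood above the level in Chow. Its level in the vehicle libraries was not analysed here, and its part in the comparison was not tested, although it does not enter the joined counts.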

How the results depend on the processing

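No paired analysis was possible because the HFD and HFD Vehicle libraries share no replicate number. The count of called genes, 0 with all 6 libraries, stayed 0 in 11 of 16 alternatives, and the single libraries left out gave 0 to 260, the highest without HFD Vehicle 55. It was 6 without HFD Vehicle 23 and 50, 32 with DESeq2 and 1 each with no count filter and with all 12 libraries, where that gene was Ces1d. The cause of these differences was not tested, except that the smaller fits hold fewer samples. Of 116 genes named in the report or under the other observations, 97 kept the sign of their fold change in every alternative; those whose sign turned are given next. Without HFD Vehicle 23 and 50 the log2 fold changes were -0.35 for Hspb1, -0.23 for Bag3, -0.035 for Nr4a1, -0.48 for Fos, -1.31 for Atf3, -0.21 for Ier2, -0.43 for Il1b, -0.062 for Pnliprp2, -0.34 for Per2, 0.13 for Cyp2c55, 0.094 for Itgae, 0.072 for H2-Aa, 0.60 for Fabp1, 0.31 for Cpt1a, 0.78 for Pdk4, 0.35 for Fkbp5 and -0.52 for Lars2. Leaving out 1 library at a time gave ranges that included 0, of -0.35 to 0.11 for Npc1l1, -0.73 to 0.57 for Cyp3a11, -0.92 to 0.50 for Fabp1, -0.68 to 0.34 for Pdk4 and -0.20 to 1.30 for Lars2. With library weights Npc1l1 was 0.15 and Cyp3a11 -0.048, and with limma-voom Cyp3a11 was -0.10. Across alternatives Ces1d stayed between 1.55 and 1.86 and Fdft1 between 0.78 and 1.12, while Hsp90aa1 went from 0.03 to 3.89. List medians kept their sign in 16 of 51 lists, chaperones (0.07 to 1.71), Paneth genes (0.69 to 2.51) and cholesterol synthesis (0.29 to 0.52) among them, and those of immediate early genes, acinar markers and T and NK cell markers reached -0.074, -0.075 and 0.22 without HFD Vehicle 23 and 50. HFD 4 and HFD Vehicle 55 are the shallowest of the 6 libraries, which limits the low genes most.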

Other observations

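Other gene groups of the duodenum had values that belong to none of the results above, and no member passed edgeR's test with 6 libraries. Plasma cell genes followed single libraries, with a summed level of 2077, 1714 and 2386 CPM in HFD 4, 30 and 38 and 1177, 896 and 3992 CPM in HFD Vehicle 23, 50 and 55. The 6 genes that passed with HFD Vehicle 55 as the lone vehicle library were all immunoglobulin variable segments and all higher, where the lone library is assumed to vary like the HFD group. Reg3b, a lectin that kills bacteria, stood at 59.6, 81.5 and 62.8 CPM in HFD and 80.1, 138 and 214 CPM in HFD Vehicle, highest in HFD Vehicle 55, with log2 fold change 1.08. Iron and heme genes had 14 of 19 negative with a median of -0.40, and their summed level of 2245, 4955 and 6103 CPM in HFD Vehicle overlapped that of HFD (5138 to 11841 CPM). The iron and heme median was -0.12 without HFD Vehicle 23. NRF2 targets, of the oxidant defence, had 18 of 22 negative with a median of -0.28, but -0.049 without HFD Vehicle 23. Sugar digestion and transport genes had 13 of 17 negative with a median of -0.30, but -0.022 without HFD Vehicle 23. In that library 13 of the 17 lay below every HFD library, against 1 in HFD Vehicle 50 and 6 in HFD Vehicle 55. Of all tested genes, 34.7, 25.5 and 27.6% lay below every HFD library in HFD Vehicle 23, 50 and 55. Ribosomal protein genes had 41 of 45 positive with a median of 0.18, which was -0.022 without HFD 30 and 0.0084 without HFD Vehicle 55, and goblet cell genes had 10 of 18 positive with a median of 0.11.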
